A study of Mus musculus with 6 samples.

Results

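Eosinophil, basophil and mast cell genes were examined in RNA of bone marrow cells sorted as megakaryocytes (MKs). The 8 genes were chosen by symbol, as granule and receptor genes of these granulocytes, and all 8 were found among the 16579 genes of the expression table. *Prg2*, *Epx* and *Prg3* encode granule proteins of eosinophils. *Prss34*, *Mcpt8* and *Cpa3* encode granule proteases, and *Fcer1a* and *Ms4a2* encode chains of the high-affinity IgE receptor. The 6 libraries came from 3-month-old mice, 3 Becn1f/f and 3 Becn1f/f;Pf4-iCre, so every mouse carried the floxed *Becn1* allele and only the second genotype carried the transgene, in which the *Pf4* promoter drives the Cre recombinase in the megakaryocytic lineage. MKs were isolated from marrow by fluorescence-activated cell sorting, and the sex of these mice was not given in the sources used here. The comparison asked how gene expression of sorted MKs differed when *Becn1*, an autophagy gene, was targeted in this lineage.

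Eosinophils store cytotoxic cationic proteins in their granules, among them eosinophil peroxidase and major basic protein. Basophils and mast cells carry IgE on the high-affinity receptor Fc epsilon RI, and crosslinking of that IgE by antigen releases histamine and proteases from their granules. All 3 cell types arise in the bone marrow from progenitors that share the transcription factors GATA1 and GATA2 with MKs.

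The libraries held between 16467560 and 17156728 estimated counts. *Becn1* itself stood at 118 ± 9.37 CPM (counts scaled by library size, SD, n = 3) in Becn1f/f and 107 ± 2.74 CPM in Becn1f/f;Pf4-iCre libraries. The log2 fold change was -0.15 (edgeR adjusted *P* = 0.936), and the table does not separate the floxed exons. By RT-qPCR the study reported a significant fall of *Becn1* mRNA in sorted CD41-positive marrow cells, and it found no detectable protein in platelets. The reason for the smaller difference in these libraries was not tested. The MK label was checked against defining genes. *Itga2b*, which encodes the MK integrin CD41, lay between 45.8 and 62.0 FPKM (fragments scaled by transcript length and library size), whereas *Pf4*, a platelet chemokine gene, reached only 7.88 to 24.1 FPKM. *Mpo*, the myeloperoxidase gene of neutrophil granules, lay between 1003 and 1853 FPKM. Summed markers of MKs and platelets took 0.331% to 0.703% of counts, but 82.5% to 90.7% of that sum was *Thbs1* and *Plek*, named after their values were seen, which other myeloid cells also express. The remaining MK and platelet markers took 0.0451% to 0.0652% of counts, and those of late neutrophils 0.845% to 1.42%. The highest of the remaining MK and platelet markers were *Itga2b*, *Itgb3*, *Cd9* and *Rgs18*, with mean CPM of 164, 119, 116 and 70.8 over the 6 libraries. The platelet glycoprotein genes *Gp1ba*, *Gp5*, *Gp1bb* and *Gp9* were at 5.19, 1.98, 1.64 and 1.585 CPM. Apart from *Itga2b*, these genes were named after their values were seen. Each genotype has 3 libraries, labelled as separate samples. No source used here states that each came from a different mouse, so *P* values measure the spread between these libraries.

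Promoter sequence was available for 7 of the 8 genes in RefSeq (GRCm38.p6), and *Prg2* had no entry in the table used here. Because GATA factors are known regulators of these lineages, the letters AGATAA and AGATAG, with their forms TGATAA and TGATAG, were searched on both strands in the 250 bases before to 50 bases after each start site, with a match counted at every position, overlaps included. At least 1 match was found in 5 of the 7 promoters, against 29.8% of 32851 promoters of the same length, and 2 or more in 1 of 7, against 7.77%. The 250 bases before the start site are printed for the pair of eosinophil genes with an entry and for *Cpa3* and *Ms4a2*, a protease and a receptor chain, so that each role among the members with an entry is shown. Capitals mark the matched letters, and each sequence reads 5′ to 3′ on the strand of its gene. The windows are chr2:84987965-84988214 (plus strand) for *Prg3*, chr11:87875537-87875786 (minus strand) for *Epx*, chr3:20242182-20242431 (minus strand) for *Cpa3* and chr19:11623720-11623969 (minus strand) for *Ms4a2*.
Prg3: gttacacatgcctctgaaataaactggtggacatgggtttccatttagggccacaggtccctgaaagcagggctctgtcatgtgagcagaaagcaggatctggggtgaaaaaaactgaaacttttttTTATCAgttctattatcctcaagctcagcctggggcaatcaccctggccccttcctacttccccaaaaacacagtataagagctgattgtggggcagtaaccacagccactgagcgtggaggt
Epx: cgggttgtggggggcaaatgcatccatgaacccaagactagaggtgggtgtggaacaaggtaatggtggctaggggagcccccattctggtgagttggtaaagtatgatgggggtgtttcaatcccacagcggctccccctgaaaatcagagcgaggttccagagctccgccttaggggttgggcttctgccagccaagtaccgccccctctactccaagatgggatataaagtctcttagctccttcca
Cpa3: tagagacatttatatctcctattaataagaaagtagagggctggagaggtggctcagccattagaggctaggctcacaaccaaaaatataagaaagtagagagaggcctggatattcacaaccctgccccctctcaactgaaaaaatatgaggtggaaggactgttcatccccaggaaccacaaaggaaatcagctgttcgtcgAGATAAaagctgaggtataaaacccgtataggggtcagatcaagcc
Ms4a2: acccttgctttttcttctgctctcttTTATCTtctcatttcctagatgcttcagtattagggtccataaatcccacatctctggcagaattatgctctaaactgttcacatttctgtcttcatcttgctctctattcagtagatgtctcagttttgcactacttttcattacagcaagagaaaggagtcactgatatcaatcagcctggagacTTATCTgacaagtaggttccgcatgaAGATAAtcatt
The *Prg3* window held 1 match, TTATCA, starting 123 bases before the start site. The *Epx* window held 0 matches. *Cpa3* held AGATAA starting 46 bases before its start site. *Ms4a2* was the member with 3 matches, at 224, 37 and 11 bases before the start site. *Prss34* and *Fcer1a* held 1 match each and *Mcpt8* held 0. A match describes the letters of the window only. *Prg2* and *Prg3* are neighbours on chromosome 2, and the other members lie on 6 further chromosomes.

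The 8 genes were abundant in the libraries sorted as MKs. *Prg2*, which encodes eosinophil major basic protein, was the gene with the sixth highest mean FPKM in the whole table. Its level was 8835, 4434 and 3634 FPKM in Becn1f/f libraries 1, 2 and 3, and 4451, 2915 and 5394 FPKM in Becn1f/f;Pf4-iCre libraries 1, 2 and 3. The genotypes overlapped, with Becn1f/f library 1 above all others. *Prg2* was 184 to 684.5 times as high as *Pf4* within a library on the FPKM scale. RNA of a mixed sample cannot show whether a level reflects the number of cells of a type or the RNA in each, and fewer cells of a type and less RNA per cell cannot be told apart here.

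*Epx*, the eosinophil peroxidase gene, was at 765, 363 and 374 FPKM in Becn1f/f and at 341, 249.1 and 391 FPKM in Becn1f/f;Pf4-iCre libraries. *Prg3*, which encodes a homologue of major basic protein, was at 221, 125 and 115 FPKM in the former and at 108, 71.3 and 127 FPKM in the latter. Both showed the pattern of *Prg2*, high in Becn1f/f library 1 and lowest in Becn1f/f;Pf4-iCre library 2. *Prg2* stayed 31.6 to 42.4 times as high as its neighbour *Prg3* and 9.71 to 13.8 times as high as *Epx* in FPKM, although each of the 3 genes varied over 3-fold between the libraries.

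*Prss34*, which encodes the basophil protease mMCP-11, was the most abundant of the other 5 genes. Its level was 1128, 886 and 1069 FPKM in Becn1f/f and 834, 815 and 897 FPKM in Becn1f/f;Pf4-iCre libraries. Becn1f/f libraries 1 and 3 lay above every Becn1f/f;Pf4-iCre library and library 2 lay within their range. *Mcpt8*, which encodes the basophil protease mMCP-8, was at 693, 488 and 519 FPKM in Becn1f/f and at 428, 437 and 543 FPKM in Becn1f/f;Pf4-iCre libraries. *Cpa3*, the carboxypeptidase gene of basophil and mast cell granules, was at 122, 82.1 and 112 FPKM and at 85.0, 102 and 118 FPKM in the same order. Both genes overlapped between the genotypes. *Prss34* was 15.3 to 19.8 times as high as *Itga2b* within a library in FPKM.

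*Fcer1a*, the IgE-binding alpha chain, was at 81.5, 72.7 and 75.6 FPKM in Becn1f/f and at 66.7, 75.7 and 89.7 FPKM in Becn1f/f;Pf4-iCre libraries. *Ms4a2*, the signal-amplifying beta chain, was at 31.4, 25.5 and 34.9 FPKM and at 23.9, 36.3 and 38.2 FPKM in the same order. In both genes the lowest and the highest level belonged to Becn1f/f;Pf4-iCre libraries 1 and 3, and the Becn1f/f libraries lay between them. The alpha chain was 2.09 to 2.85 times the beta chain. *Fcer1g*, the gamma chain that Fc epsilon RI shares with other Fc receptors and that many myeloid cells express, was named after its values were seen, and it was 5.75 to 9.14 times as high as *Fcer1a* in FPKM.

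**Figure D1:**
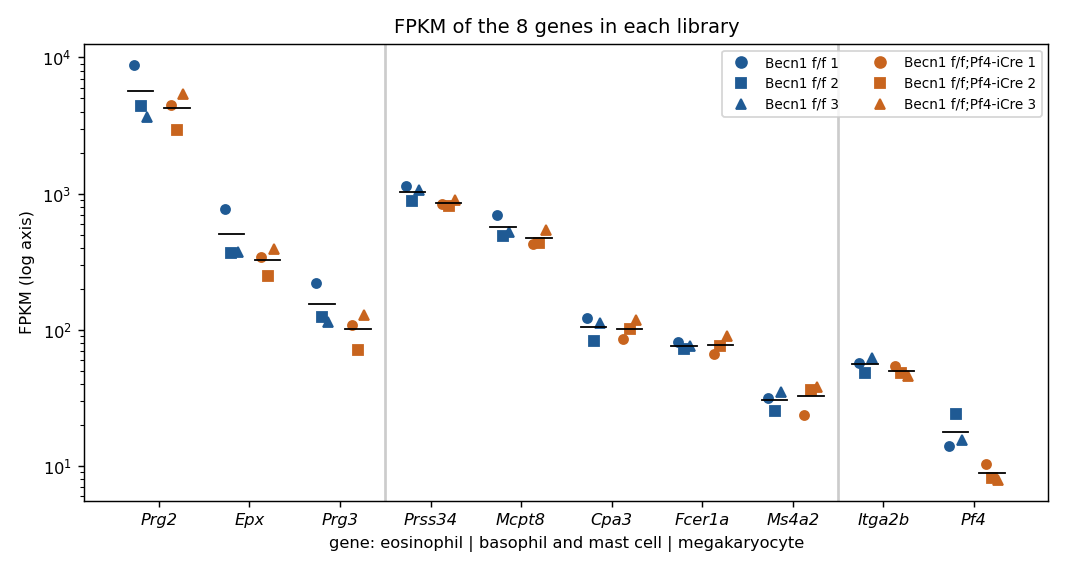
FPKM (log axis) of the 8 genes and of the MK genes Itga2b and Pf4, with 1 point per library, blue for Becn1f/f and orange for Becn1f/f;Pf4-iCre, and a bar at each genotype's mean of 3 libraries. The genotypes overlap for each of the 8 genes, and Becn1f/f library 1 is the highest for the 3 eosinophil genes.

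By mean FPKM the order was *Prg2* (4944), *Prss34* (938), *Mcpt8* (518), *Epx* (414), *Prg3* (128), *Cpa3* (104), *Fcer1a* (77.0) and *Ms4a2* (31.7). Their ranks among all genes of the table ran from 6 for *Prg2* through 100 for *Prss34* to 3067 for *Ms4a2*. *Mcpt8* was above *Epx*, and *Prg3* above *Cpa3*, in 5 of 6 libraries with overlapping ranges, so these neighbours did not differ beyond their spread. *Cpa3* was above *Fcer1a* in 6 of 6 libraries, but their ranges over libraries overlapped. The other neighbours in this order had ranges that did not overlap.

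None of the 8 genes passed the thresholds for a difference between the genotypes. Genes counted as differentially expressed (DEGs) if they changed at least 1.5-fold with *P* under 0.05 before adjustment. By this rule 0 of the 8 genes were DEGs in edgeR, against 2.3% of the 12256 genes tested, and DESeq2 and limma-voom also called 0 of 8. Likewise 0 of 8 genes had TMM-scaled CPM that did not overlap between the genotypes, against 10.6% of all tested genes. The unadjusted edgeR *P* was under 0.05 for 1 of the 8 genes, *Prg3*, against 773 of all tested genes (6.31%). Of the 8 genes 6 had a lower and 2 a higher fitted level in Becn1f/f;Pf4-iCre libraries, while 54.5% of all tested genes were lower. The median log2 fold change was -0.26 beside -0.02 over all tested genes. Exact two-sided permutation tests of CPM, which cannot go below 0.1 with 3 against 3 libraries, gave 0.2 to 0.8 for the members.

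The eosinophil genes had the largest fitted fold changes among the 8 genes and the widest spread. *Epx* averaged 1192 ± 584 CPM (SD, n = 3) in Becn1f/f and 781 ± 176 CPM in Becn1f/f;Pf4-iCre libraries, a log2 fold change of -0.61 ± 0.28 (SE, 95% interval -1.23 to 0.01, edgeR adjusted *P* = 0.803). *Prg3* averaged 97.6 ± 38.9 CPM and 65.1 ± 18.6 CPM, a log2 fold change of -0.58 ± 0.27 (95% interval -1.16 to -0.0042, adjusted *P* = 0.781), which missed the fold threshold of 0.585 on the log2 scale. For *Prg2* the values were 2939 ± 1504 and 2228 ± 670 CPM, with a log2 fold change of -0.40 ± 0.32 (95% interval -1.09 to 0.29, adjusted *P* = 0.919). The genotypes overlapped for each of the 3 genes, and the size of the difference turned on Becn1f/f library 1. That library held 2.19, 2.00 and 1.99 times the median CPM of the other 5 libraries for *Epx*, *Prg2* and *Prg3*, and without it the log2 fold changes were -0.12 for *Epx*, 0.10 for *Prg2* and -0.20 for *Prg3*. Without Becn1f/f library 3, *Epx*, *Prg2* and *Prg3* all passed the DEG thresholds, with log2 fold changes of -0.80, -0.65 and -0.77 and edgeR adjusted *P* of 0.714, 0.873 and 0.685. Without Becn1f/f library 2, or without Becn1f/f;Pf4-iCre library 3, *Epx* and *Prg3* passed. In Becn1f/f library 1 the summed markers of MKs and platelets (0.703% of counts, 0.331% to 0.574% elsewhere, and without *Thbs1* and *Plek* 0.0652%, 0.0451% to 0.058% elsewhere) and of late neutrophils (1.42%, 0.845% to 1.21% elsewhere) were also at their highest, and their part in the eosinophil values was not tested.

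The basophil and mast cell genes had smaller fitted differences. *Prss34* averaged 917 ± 120 CPM in Becn1f/f and 764 ± 41.3 CPM in Becn1f/f;Pf4-iCre libraries, a log2 fold change of -0.26 ± 0.14 (SE, edgeR adjusted *P* = 0.879). *Mcpt8* averaged 297 ± 62.0 and 247 ± 29.8 CPM, a log2 fold change of -0.27 ± 0.17 (adjusted *P* = 0.884). *Cpa3* was at 96.9% of its Becn1f/f mean, with 115 ± 24.6 and 112 ± 15.3 CPM. For the receptor chains the means were at 101% (*Fcer1a*, 53.9 ± 3.99 and 54.7 ± 6.92 CPM) and 108% (*Ms4a2*, 73.0 ± 11.1 and 78.9 ± 17.2 CPM) of Becn1f/f. The 95% intervals of the log2 fold change were -0.42 to 0.33 for *Cpa3*, -0.28 to 0.32 for *Fcer1a* and -0.28 to 0.50 for *Ms4a2*, so a fold of 1.5 in either direction lay outside them. The intervals of *Epx*, *Prg2*, *Prg3* and *Mcpt8* included a fold of 1.5 downward. The sign for *Cpa3*, *Fcer1a* and *Ms4a2* changed when single libraries were left out. Over all tested genes the log2 fold change was related to the GC content of the transcript (Spearman's rho -0.34 across 11953 genes, which are not independent replicates), and among the members *Epx* had the highest GC content (56.3%) and *Ms4a2* the lowest (37.6%). With this trend and that of transcript length removed, an alternative chosen after seeing the data, the log2 fold changes of *Epx* and *Ms4a2* were -0.55 and -0.03.

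**Figure D2:**
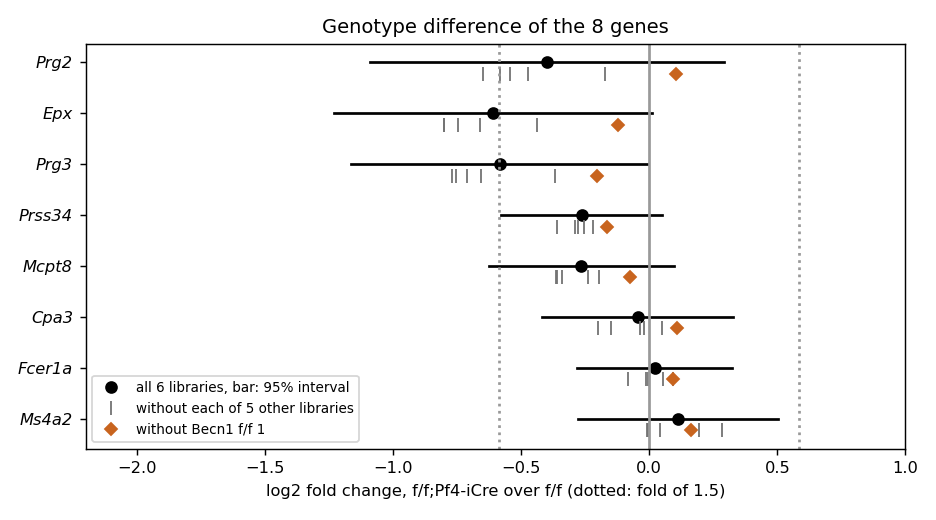
Log2 fold change of each gene in Becn1f/f;Pf4-iCre over Becn1f/f libraries (black point, bar for the 95% interval), with the values after leaving out each library in grey and, as an orange diamond, without Becn1f/f library 1. Dotted lines mark a fold of 1.5, and the diamond of Prg2 lies at 0.10 while its value from all 6 libraries is -0.40.

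The 3 eosinophil genes varied widely between libraries of 1 genotype and the other 5 genes less. The coefficient of variation of CPM within a genotype, pooled over both genotypes, was 38.1% for *Epx*, 42.0% for *Prg2* and 34.7% for *Prg3*, beside a median of 14.2% over all tested genes, and placed them at the 94.9th, 96.4th and 93.1st percentile. For the other 5 genes it reached at most 18.8% (*Ms4a2*), and their percentiles ran from 25.4 (*Prss34*) to 70.0 (*Ms4a2*). The highest library exceeded the lowest 3.20-fold for *Epx*, 3.15-fold for *Prg2* and 3.23-fold for *Prg3*, and 1.27-fold (*Fcer1a*) to 1.65-fold (*Mcpt8*) for the others. Centred on the mean of the 6 libraries, the mean log2 CPM of the eosinophil genes was 0.95, -0.04 and -0.20 in Becn1f/f and -0.07, -0.72 and 0.08 in Becn1f/f;Pf4-iCre libraries. The mean of the basophil and mast cell genes was 0.24, -0.17 and 0.06 in the former and -0.19, -0.07 and 0.13 in the latter. Becn1f/f;Pf4-iCre library 2, the lowest for the eosinophil genes, was also the lowest for *Mcpt8* (-0.27) and *Prss34* (-0.22), which were highest in Becn1f/f library 1 (0.46 and 0.30) as the eosinophil genes were, over a smaller range. *Cpa3* (-0.02) and *Fcer1a* (-0.05) lay near their means in that Becn1f/f;Pf4-iCre library and *Ms4a2* (0.20) above it.

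**Figure D3:**
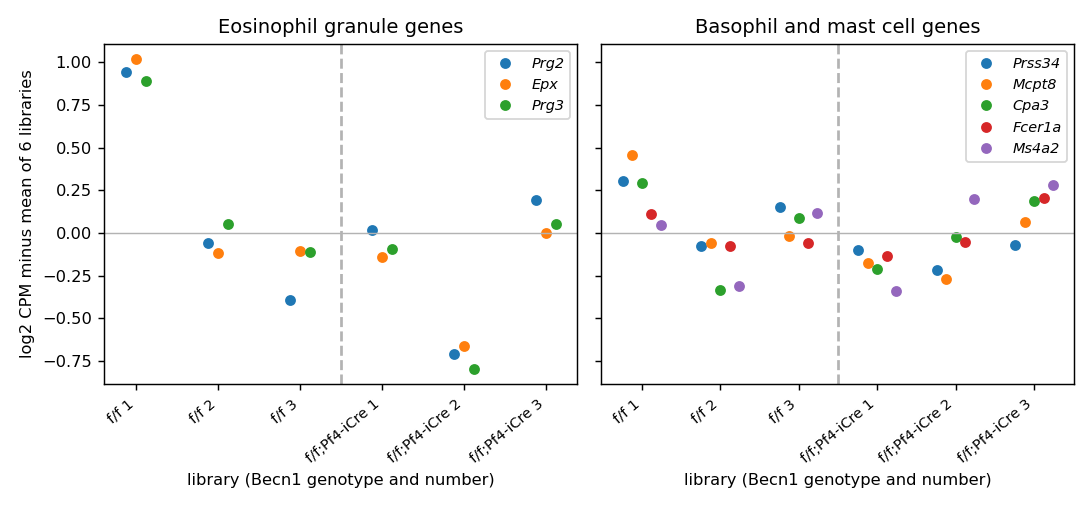
Log2 CPM of each gene minus its mean over the 6 libraries, with 1 point per gene and library and a dashed line between the genotypes. The 3 eosinophil genes lie close together in each library, near 0.95 in Becn1f/f library 1 and near -0.72 in Becn1f/f;Pf4-iCre library 2, whereas the 5 basophil and mast cell genes stay nearer to 0.

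In sum the 3 eosinophil genes took 0.644%, 0.331% and 0.286% of counts in Becn1f/f and 0.326%, 0.212% and 0.377% in Becn1f/f;Pf4-iCre libraries. The 5 basophil and mast cell genes took 0.162%, 0.127% and 0.150% in the former and 0.119%, 0.120% and 0.136% in the latter. Both sums overlapped between the genotypes. The ratio of the eosinophil to the basophil and mast cell sum in CPM was 3.98, 2.60 and 1.91 in Becn1f/f and 2.74, 1.77 and 2.78 in Becn1f/f;Pf4-iCre libraries, so the ranges of the genotypes overlapped.

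The genes whose profile over the 6 libraries was most like the mean of the eosinophil genes were *Ear2*, *Ear1*, *Cd63*, *Ear6* and *Snai1*, with mean absolute differences of centred log2 CPM of 0.094, 0.11, 0.11, 0.13 and 0.14. *Ear1*, *Ear2* and *Ear6* encode eosinophil-associated ribonucleases, and *Cd63* encodes a tetraspanin of granule and lysosome membranes. *Ear1* and *Ear2* share 57.4% and 41.5% of their 50-base stretches with other transcripts, mostly of the same family, so the split of counts among them is uncertain. Of the 8 members, *Ms4a2* shares 2.69% with *Ms4a4b* and the other 7 share 0. Nearest to the basophil and mast cell genes were *Serpine2* (0.027), *Pla2g4a* (0.032), *2700062C07Rik* (0.037), *Stx3* (0.042) and *Tfrc* (0.043), where the member profile is flatter and a small difference is easier to reach.

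Other eosinophil genes were measured from a list of 14, of which 12 were tested. Among them 9 had lower and 3 higher fitted levels, beside 54.5% lower over all tested genes. The median log2 fold change was -0.36 beside -0.02 over all tested genes. Markers of some other cell types were also lower, with medians of -0.45 for neutrophil primary granules (7 of 8 lower), -0.39 for late neutrophils (12 of 14 lower) and -0.64 for erythroid cells (15 of 15 lower). Of the erythroid markers 7 were DEGs in edgeR, beside 2.3% of all tested genes, 4 in DESeq2 and 2 with limma on log2(FPKM + 1). The part of these cell types in the eosinophil values was not tested. *Ear10*, a ribonuclease gene of the same family with 39.9% of its stretches shared, was the 1 gene past the DEG thresholds, at 5.34 ± 2.87 CPM in Becn1f/f and 2.33 ± 0.90 CPM in Becn1f/f;Pf4-iCre libraries (log2 fold change -1.18 ± 0.39, edgeR adjusted *P* = 0.499). The 4 most abundant in CPM were *Alox15*, the 12/15-lipoxygenase gene (-0.46), *Ear1* (-0.43), *Ccl6*, a chemokine gene (0.07), and *Cd24a*, a surface glycoprotein gene (-0.40), and 0 of these passed. Each of these 4 was highest in Becn1f/f library 1, as the eosinophil members were. The summed markers of late neutrophils and of MKs and platelets were also highest in that library, so this pattern is not limited to eosinophil genes. Without that library *Ear10* no longer passed (-0.66, adjusted *P* = 0.535), and the median of the list was 0.06. The count moved the other way without Becn1f/f library 2, when 4 genes passed (median -0.57), and without Becn1f/f library 3, when 2 passed (-0.41), all lower. In FPKM *Ear1* ranged from 1172 to 3184 and *Alox15* from 261 to 694.

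Of 21 other basophil genes, 19 were tested. Among these, 15 had higher and 4 lower fitted levels in Becn1f/f;Pf4-iCre libraries, with a median log2 fold change of 0.18. Over all tested genes 54.5% were lower. The unadjusted edgeR *P* was under 0.05 for 5 of the 19, beside 6.31% of all tested genes. *Il4*, the interleukin-4 gene, was the 1 gene past the DEG thresholds in edgeR, at 1.74 ± 0.95 CPM in Becn1f/f and 4.09 ± 1.15 CPM in Becn1f/f;Pf4-iCre libraries (log2 fold change 1.24 ± 0.38, edgeR adjusted *P* = 0.455). Its counts were 43, 30 and 14 in the former and 90, 53 and 62 in the latter. In DESeq2 and in limma-voom 2 genes of this list passed, both higher. The 4 most abundant in CPM were the chemokine genes *Ccl3* (log2 fold change 0.48, adjusted *P* = 0.455) and *Ccl9* (0.58, adjusted *P* = 0.334), the cytokine gene *Osm* (0.37, adjusted *P* = 0.76) and *Hdc*, the histamine-forming histidine decarboxylase gene (0.05, adjusted *P* = 0.991). With an unadjusted edgeR *P* of 0.00232, *Ccl9* narrowly missed the fold threshold of 0.585 on the log2 scale. *Ccl3*, *Ccl9* and *Osm* are also expressed by macrophages. The summed list took 0.241% to 0.258% of counts in Becn1f/f and 0.291% to 0.308% in Becn1f/f;Pf4-iCre libraries. The summed macrophage markers took 0.0885% to 0.0922% and 0.0934% to 0.110%, so that both sums were higher in every Becn1f/f;Pf4-iCre library. Such separation was not limited to these lists. Summed erythroid markers (0.0705% to 0.0982% and 0.0517% to 0.0675%) and neutrophil primary granule markers (0.5824% to 0.6555% and 0.413% to 0.5525%) were lower in every Becn1f/f;Pf4-iCre library. Of single tested genes 10.6% did not overlap between the genotypes in either direction. Of 14 tested macrophage markers 4 passed the DEG thresholds in edgeR, all 4 higher, beside 2.3% of all tested genes. DESeq2 also called 4, and limma on log2(FPKM + 1) called 1. The part of macrophage RNA in the basophil list was not tested. Of the 5 basophil and mast cell members, 2 had higher and 3 lower fitted levels. Without Becn1f/f library 1, 3 genes of the basophil list passed instead of 1, and 2 without Becn1f/f;Pf4-iCre library 1 or 3.

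Of 26 other mast cell genes, 17 had a row in the table and 14 were tested. The DEG thresholds were passed by 0 in edgeR or DESeq2, beside 2.3% of all tested genes in edgeR. Fitted levels were higher for 7 and lower for 7, with a median log2 fold change of -0.01. An unadjusted edgeR *P* under 0.05 was found for 0, beside 6.31% of all tested genes. Without Becn1f/f library 1 the median of this list was 0.24 and 1 gene passed, higher. *Srgn*, the serglycin proteoglycan gene (0.01), *Hdc* (0.05), *Ctsg*, the cathepsin G gene (-0.29), and *Cd63* (-0.36) were the most abundant, and none of the 4 is limited to mast cells. *Kit*, the stem cell factor receptor gene of mast cells and progenitors, was at 17.1 to 25.8 FPKM. Some genes of mature tissue mast cells were at or near 0 counts, while other genes of the list were not. *Mcpt4* and *Mrgprb1* had 1 count in 1 library each and *Cma1* had at most 2 counts, genes that were named after their values were seen. *Slc18a2*, *Gzmb*, *Il1rl1* and *Adora3*, also named after their values were seen, had mean CPM of 39.5, 37.1, 35.4 and 7.11 over the 6 libraries. Among the 8 members the mast cell label rests on *Cpa3*, *Fcer1a* and *Ms4a2*, which basophils also express.

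Genes around the IgE receptor and of the granulocyte lineages were mostly within the thresholds, as were most of all tested genes. For every list below, the share over all 12256 tested genes was 2.3% past the DEG thresholds in edgeR. An unadjusted edgeR *P* under 0.05 was found for 6.31% of them. Of 29 genes of Fc epsilon RI signalling, all tested, 0 passed in edgeR or DESeq2 (20 higher, 9 lower, median log2 fold change 0.02, 2 with an unadjusted *P* under 0.05), and the most abundant in CPM were the kinase genes *Syk* (0.01) and *Prkcd* (0.07), the ubiquitin ligase gene *Cbl* (0.25) and the phospholipase gene *Plcg2* (0.06). Without Becn1f/f library 1 or 3, 1 gene of this list passed, higher. Of 24 lineage regulators 1 passed, *Id1*, an inhibitor of basic helix-loop-helix factors, which was higher in Becn1f/f;Pf4-iCre libraries (log2 fold change 0.75 ± 0.15, edgeR adjusted *P* = 0.134). *Ikzf1* (0.12), *Irf8* (0.01), *Trib1* (0.07) and *Cebpb* (-0.19) were the most abundant regulators. In this list 6 of 24 genes had an unadjusted *P* under 0.05, beside 6.31% of all tested genes. The genes of these 6 besides *Id1* were *Id2* (0.50), *Mitf* (0.38), *Cebpe* (-0.55), *Gata1* (-0.44) and *Zfpm1* (-0.37), with edgeR adjusted *P* from 0.442 to 0.772. They were named after their values were seen. Leaving out Becn1f/f library 1 gave 3 DEGs, all higher, leaving out Becn1f/f library 2 or 3 gave 1 higher and 1 lower, and leaving out Becn1f/f;Pf4-iCre library 3 gave 1 higher and 2 lower. Among 18 tested of 20 growth factor and cytokine receptor genes, *Flt3* (0.74, adjusted *P* = 0.111) and *Il13ra1* (0.97, adjusted *P* = 0.0892) were higher and passed the DEG thresholds, while *Csf1r* (0.26), *Csf2rb* (-0.05), *Csf3r* (-0.37) and *Csf2ra* (0.04), the most abundant, did not. *Csf2rb* encodes the common beta chain of the interleukin-3, interleukin-5 and GM-CSF receptors. Of 20 genes of mediator synthesis and storage 16 were tested and 0 passed in edgeR or DESeq2 (8 higher, 8 lower, 4 with an unadjusted *P* under 0.05), with *Srgn*, *Alox5ap* (0.12), *Hdc* and *Lta4h* (-0.41, adjusted *P* = 0.688) as the most abundant. Without Becn1f/f library 2, 2 genes of this list passed, and 1 passed without Becn1f/f library 1 or Becn1f/f;Pf4-iCre library 2, all lower. The medians of these last 3 lists lay between -0.02 and -0.01, near that of all tested genes.

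**Figure D4:**
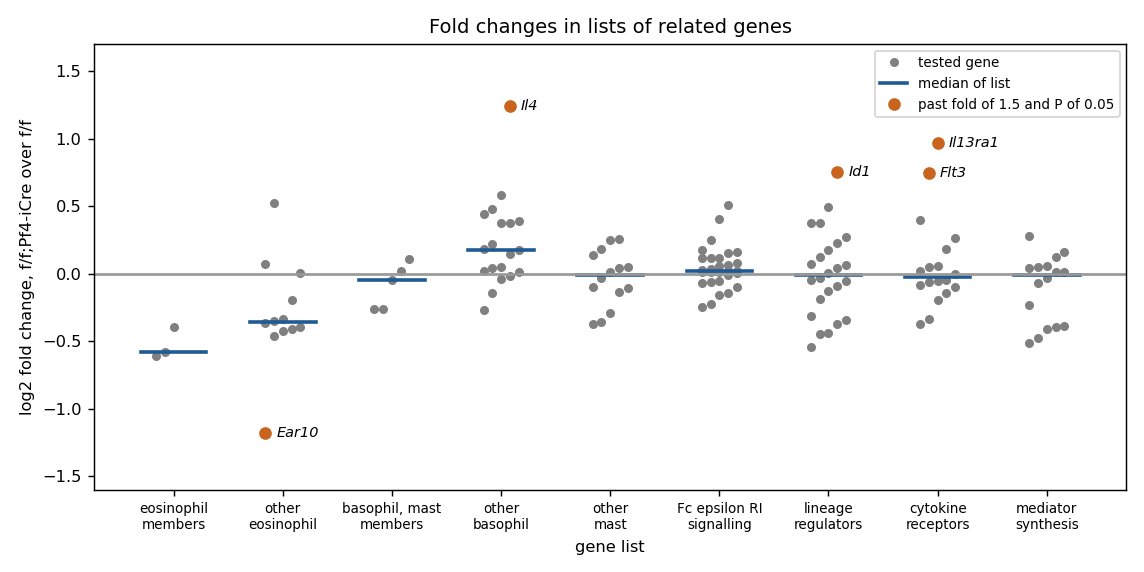
Log2 fold change of every tested gene in the 8 genes and in 7 lists of related genes, with blue bars at the medians and orange points for DEGs. The orange points are Ear10, Il4, Id1, Flt3 and Il13ra1, and 0 of the 8 members is orange.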

How the data were processed

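RNA of cells sorted as MKs from bone marrow was measured in 6 libraries, 3 Becn1f/f and 3 Becn1f/f;Pf4-iCre, grouped by the sample titles. The authors sequenced on the DNBSEQ platform, removed low-quality reads, mapped with HISAT and deposited an estimated count and an FPKM value per gene. The submitters' processing notes name HISAT, Bowtie2 and the build GRCm39 (mm39), and the counting tool is not given in the sources used here. The deposited estimated counts are not normalized and 10.3% to 11.3% of genes per library are not whole numbers. In the deposited FPKM values the authors had already divided by transcript length and sequencing depth. Another 16 columns of per-sample values were not used, 4 of them of a library that matches none of the samples, nor were 8 columns of group means.

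Estimated counts were rounded, filtered with filterByExpr, which kept 12256 genes, normalized with TMM factors and fitted in R 4.3.3 by the quasi-likelihood method of edgeR 4.0.16 (genotype as the only term, Benjamini-Hochberg adjustment over all tested genes). Standard errors and 95% intervals of log2 fold changes were obtained from the quasi-likelihood F statistic. DEGs had a fold change of at least 1.5 and an unadjusted *P* under 0.05, as in the study's methods. FPKM compared levels between genes, and TMM-scaled CPM compared libraries. Depth was 16467560 to 17156728 counts a library, and precision rests on the spread of 3 libraries a genotype. Alternatives were DESeq2 1.42.0, limma 3.58.1 on voom weights and on log2(FPKM + 1) or log2(FPKM + 0.1), other filters, a replicate block, a correction for GC content and length, and leaving out each library. The fit was tested on simulated data. No pair of libraries of the same genotype agreed within sampling noise, and pairs across genotypes were not compared in this way.

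The members and all gene lists were chosen with earlier results of these data known. Named genes are the members, *Becn1*, the DEGs and 4 most abundant tested genes of each related list, the 5 tested genes with mean CPM of at least 1 nearest in profile to each member group, and *Pf4*, *Itga2b*, *Mpo* and *Kit*. Promoters came from RefSeq (GRCm38.p6) and shared transcript stretches from GENCODE M21, both on another build than the deposited table, from which no position was taken.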

Additional observations from a re-analysis of the deposited data

How the results depend on the processing

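Of 262 alternative values for the members, their sums, 6 other genes and the counts of DEGs, 231 were rated as kept. For a fold change this meant the same direction and side of the thresholds. For a count it meant lying within 1.5-fold of the main value, and for a sum moving by less than its SD over libraries. The tally thus does not measure stability of size, since *Epx* at -0.12 and *Prg3* at -0.20 without Becn1f/f library 1 were rated as kept. The 6 other genes were *Becn1* and the DEGs *Ear10*, *Il4*, *Id1*, *Flt3* and *Il13ra1*. *Ear10* was kept in 15 settings and each of the others in 16, which raises the tally. Every sum was rated as moved, with percent of FPKM set against percent of counts. The number of DEGs over all genes was 282 with edgeR, 121 and 432 with limma on log2(FPKM + 1) and log2(FPKM + 0.1), 137 with a mean FPKM of at least 1, 5 at an adjusted *P* under 0.05, and 225 to 410 when each library was left out. DEGs split into 167 higher and 115 lower with edgeR, and in the FPKM fits into 88 and 33, 216 and 216, and 96 and 41. The number of members past the thresholds was 0, but 1 with no filter on low counts (*Epx*, log2 fold change -0.61) and 0 to 3 when each library was left out. Leaving out each library gave -0.80 to -0.12 for *Epx*, -0.65 to 0.10 for *Prg2*, -0.77 to -0.20 for *Prg3*, -0.37 to -0.07 for *Mcpt8*, -0.36 to -0.16 for *Prss34*, -0.20 to 0.11 for *Cpa3*, -0.084 to 0.092 for *Fcer1a* and -0.0083 to 0.28 for *Ms4a2*. The correction for GC content and length, chosen after seeing the data, turned *Fcer1a* to -0.047 and *Ms4a2* to -0.031. Percent of all FPKM is another measure than percent of counts, since FPKM is divided by transcript length. By that measure the eosinophil genes took 1.06% in Becn1f/f and 0.802% in Becn1f/f;Pf4-iCre libraries and the basophil and mast cell genes 0.309% and 0.264%. The cause of the shifts between fits was not tested. The replicate numbers of the labels did not pair the libraries (correlations of deviations of 0.02, -0.38 and 0.21 for the same number). With the replicate block 296 genes and 0 members were past the thresholds, with log2 fold changes of -0.53 for *Epx* and -0.56 for *Prg3*. The order of levels was not recomputed from counts per kilobase, since the lengths behind the FPKM values were not used here.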
